A study of Ovis aries with 14 samples.

Results

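In this study of lamb lung, 26 of 27054 genes met a rule on their level. They were highest in each of the youngest fetal lungs and lower in older fetuses with no treatment. In at least 1 lung of each supported group and of term, they still reached the lowest of those older fetuses. The study measured RNA of the right lower lobe in 14 lambs (Ovis aries), each with its own animal identifier, in 5 groups. Fetal start lungs (n = 3) carry no treatment and the ages gd127, gd128 and gd131 (gestational day), and fetal end lungs (n = 3) carry no treatment and the ages gd135, gd134 and gd136, in the order of replicates 1 to 3. Preterm lambs labelled gd134 had 3 days of respiratory support, by invasive mechanical ventilation (IMV, n = 3) or, without intubation, by noninvasive respiratory support given with a mask (NRS, n = 3). Term lungs (n = 2) were labelled gd150 with no treatment. Libraries held between 23267448 and 31586235 counts, and levels are given as CPM, a gene's count divided by its library's total and scaled to the same total for all libraries.

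The labels limit what the groups can show. Animal identifiers end in 17 for fetal start replicate 1 and IMV replicates 1 and 2. They end in 19 for all 3 fetal end lambs and in 18 for the other 8 lambs. Any contrast with fetal end, including the step from fetal start, thus cannot be told apart from that change of suffix. The contrasts of IMV with NRS and with term are confounded with the suffix in part, while NRS and term share suffix 18. The identifiers of fetal end replicates 1 and 2 begin with F134 and F135, whereas their age labels read gd135 and gd134, and the age labels are used here.

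Between these ages the lung of the fetal lamb passes from a tissue of thick septa and dividing cells towards one of thin-walled airspaces. Mesenchyme between the airspaces thins, growth and patterning programmes of earlier gestation are turned down, and the epithelium takes on surfactant production. The deposited table gives Ensembl gene identifiers without names, and 0 of them could be paired with a symbol or a sequence here. Roles of single genes, lists of pathway genes and markers of the labelled tissue were therefore not used. In whole tissue, fewer cells of a type and less RNA per cell cannot be told apart.

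The genes were selected on their own CPM values. A gene had to have a mean CPM over the 14 libraries of 2 to under 1000, which 13364 genes had, and all 3 fetal start libraries had to lie above the other 11, which 158 of those did (1.18%). The mean at fetal end had to be at most 0.77 of that at fetal start, which left 57 genes. Finally, at least 1 library each of IMV, NRS and term had to reach the lowest fetal end library, which removed 31 genes that lay lower still in some later group and left 26. Term removed the most, since in 29 of the 57 genes neither term library reached the fetal end range, against 11 genes each for IMV and NRS. Term has 2 libraries where IMV and NRS have 3 each, so it had fewer chances to reach that range. Every contrast with fetal start was thus used to choose the genes and is given as a description with no test. Contrasts of IMV, NRS and term with fetal end were used in part and are treated in the same way.

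The fall from fetal start to fetal end ran from 23.1% to 89.0% of the starting mean, with a median of 33.6%. The mean at fetal end was at most 0.5 of the start in 8 genes and over 0.65 of it in 14, so most of the set fell by a modest amount. All 26 genes passed the expression filter of the test across genes. The median log2 fold change of the 26 was -0.61, from -3.22 to -0.41, where the median of all 17069 genes tested was 0.00413. Levels were mostly low, with a mean CPM over all libraries under 10 in 14 genes and of 100 or more in 3. Those 3 genes together held 80.4% of the summed mean CPM of the set. Summed over the 26 genes, the level was 4064 ± 1568 CPM at fetal start and 1586 ± 325 CPM at fetal end (SD, n = 3 each), and single fetal start libraries ran from 2691 to 5772 CPM.

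**Figure D1:**
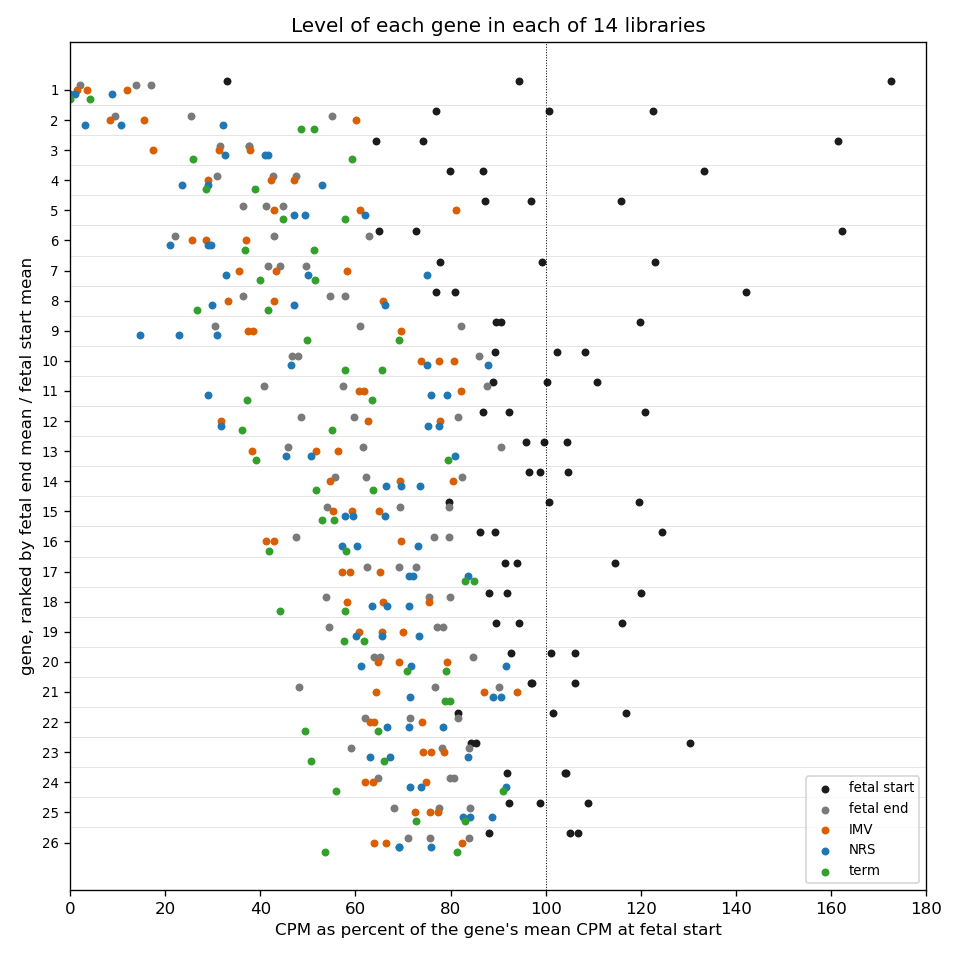
Each of the 26 genes is a row, ordered from the largest fall (1) to the smallest (26) between the fetal groups, and each point is 1 library, plotted as a percentage of that gene's mean CPM at fetal start. Black points (fetal start) lie to the right of all other points in every row by the choice of the genes, while fetal end, IMV, NRS and term points overlap.

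ENSOARG00000019174 had the largest fall of the set and was the gene with the second highest mean CPM (455 over all libraries). It stood at 1652, 3018 and 576 CPM in fetal start replicates 1, 2 and 3, a mean of 1749 ± 1224 CPM (SD, n = 3). At fetal end it stood at 36.3, 242 and 296 CPM, a mean of 192 ± 137 CPM (SD, n = 3) or 0.110 of the start. That ratio was 0.172 without fetal start replicate 2, and 0.0797 to 0.154 without each of the other fetal libraries in turn. The oldest fetal start lamb, labelled gd131, was the lowest of its group, yet its level was 1.95 times that of the highest later library. The exact 95% interval of that ratio was 1.89 to 2.001, for counting error alone. IMV replicates 1 to 3 had 25.5, 209 and 62.5 CPM, NRS replicates 1 to 3 had 154, 0.387 and 16.9 CPM, and term replicates 2 and 3 had 0.238 and 74.5 CPM. NRS replicate 2 and term replicate 2 were nearly silent, with 9 and 7 counts, and lay far below the other lambs of their groups. It was the only one of the 26 with a break this wide: neighbouring libraries in its ranking were separated by 5.12 on a log2 scale of CPM plus 0.1, where the widest break in any of the other 25 genes was 1.156. A break of more than 3 on that scale, with a highest CPM over 3, was found in 41 of the 13364 genes of the same abundance range.

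ENSOARG00000005153 had the second largest fall and was among the least abundant of the set. Fetal start replicates 1 to 3 had 4.63, 7.38 and 6.06 CPM, and fetal end replicates 1 to 3 had 1.53, 3.31 and 0.564 CPM. The group means were 6.02 ± 1.38 and 1.80 ± 1.40 CPM (SD, n = 3 each), a ratio of 0.299 that ran from 0.174 to 0.402 without each fetal library in turn; it was 0.174 without fetal end replicate 2. The level was spread widely within both supported groups, at 0.928, 0.507 and 3.62 CPM with IMV and 1.94, 0.645 and 0.193 CPM with NRS. Both term libraries, at 2.92 and 3.08 CPM, lay within the fetal end range and above all 3 NRS libraries. Its lowest value rests on 5 counts, the smallest count of any of the 26 genes in any library.

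The other abundant genes of the set fell less far. ENSOARG00000022732 had the highest mean CPM, 807 over all libraries, and stood at 1036, 951 and 1090 CPM at fetal start against 667, 656 and 869 CPM at fetal end. Its fetal end mean was 0.713 of the start, 731 ± 120 against 1026 ± 70.1 CPM (SD, n = 3 each). After support and at term it kept to the fetal end level, at 728 ± 75.8 CPM with IMV, 768 ± 159 CPM with NRS (SD, n = 3 each) and 768 ± 59.5 CPM at term (SD, n = 2). NRS replicate 3, at 940 CPM, came close to the lowest fetal start library, a ratio of 1.01 with a 95% counting interval of 0.994 to 1.03. ENSOARG00000024795, named here after its values were seen, was the third most abundant. It had 530, 1180 and 472 CPM at fetal start and 312, 160 and 457 CPM at fetal end, so fetal end replicate 3 lay just below fetal start replicate 3. Its mean was 221 ± 42.6 CPM with IMV and 193 ± 35.2 CPM with NRS, against 310 ± 149 CPM at fetal end (SD, n = 3 each). Term replicates 2 and 3 had 373 and 267 CPM.

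**Figure D2:**
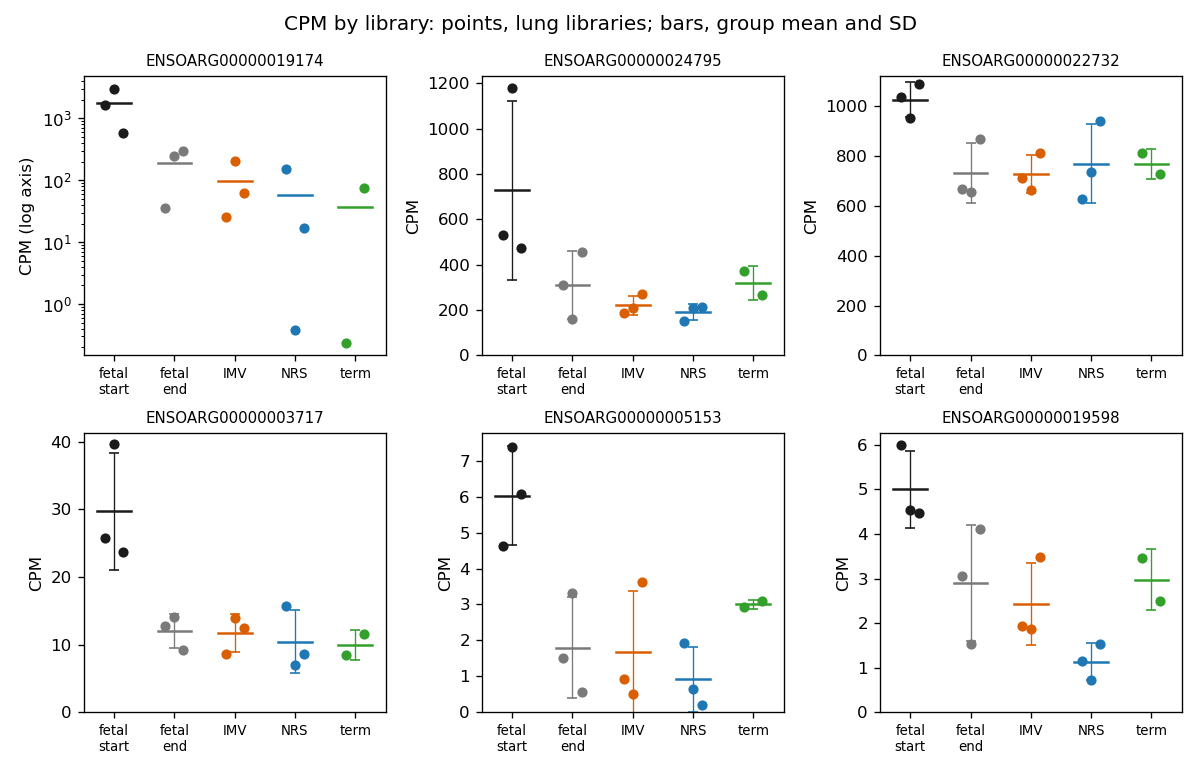
CPM of 6 genes in each library by group (points), with the group mean (long bar) and SD (error bars, cut at 0; not drawn for ENSOARG00000019174, whose axis is logarithmic). ENSOARG00000019174 spans 0.238 to 3018 CPM and nearly vanishes in 1 NRS and 1 term library, whereas ENSOARG00000022732 keeps between 627 and 1090 CPM.

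Fetal start was set apart from the nearest later library by a narrow margin in most of these genes. The lowest fetal start CPM divided by the highest of the other 11 had a median of 1.06 over the 26 genes, from 1.00 to 1.95, and was at least 1.5 in 2 genes. In 22 of the 26 the exact 95% counting interval of this ratio included 1, so that at this depth the order of those 2 libraries was not resolved. The rule puts every ratio above 1, and the interval does not allow for that choice. It describes counting error and is no test. The interval lay above 1 in 4 genes, which are named here after their values were seen. These were ENSOARG00000019174, ENSOARG00000003717 (ratio 1.51, interval 1.34 to 1.71), ENSOARG00000011056 (ratio 1.17, interval 1.05 to 1.31) and ENSOARG00000024795. The last had a ratio of only 1.03 (interval 1.006 to 1.06), below the median of the 26 genes. Its interval is narrow because its counts are high, with 12538 in its lowest fetal start library. ENSOARG00000003717 had 25.8, 39.6 and 23.7 CPM at fetal start against 12.7, 14.1 and 9.19 CPM at fetal end, and no later library exceeded 15.7 CPM, the level of NRS replicate 1. ENSOARG00000011056 had 24.6, 26.7 and 25.1 CPM at fetal start, the closest agreement within fetal start of these 4 genes, and 21.0, 15.8 and 14.2 CPM at fetal end. The highest later library belonged to fetal end in 14 genes, to NRS in 7, to IMV in 3 and to term in 2.

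**Figure D3:**
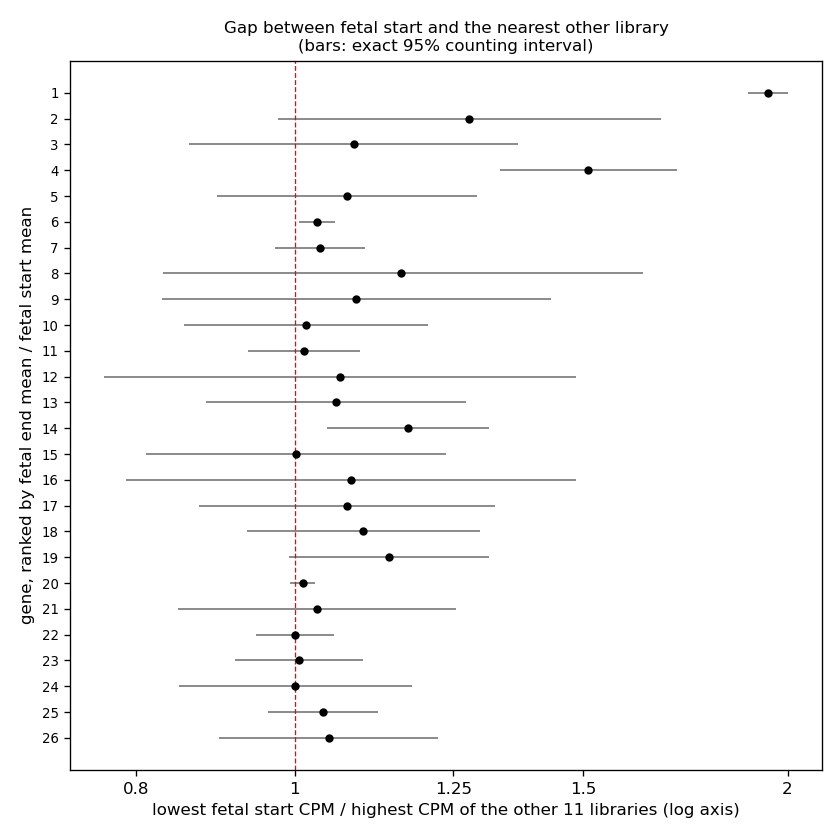
For each gene (rows in the order of the plot of levels by library) the point is the lowest fetal start CPM divided by the highest CPM of the other 11 libraries, on a logarithmic axis, and the bar is its exact 95% counting interval. The bar crosses 1 in 22 of the 26 genes, and genes 1 and 4, at 1.95 and 1.51, are the farthest from it.

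The choice of genes is sensitive to the scaling of the libraries and to the number of fetal start lambs. With library sizes scaled by TMM (the trimmed mean of M-values), or by RLE (the relative log expression method), 40 genes met the rule, and 24 of them were among the 26. The rule was met by 63 genes without fetal start replicate 1, by 45 without replicate 2 and by 96 without replicate 3, and these lists held 26, 22 and 23 of the 26 genes. A shorter fetal start group makes the rule easier to meet. Near the limit of 0.77, ENSOARG00000004714 (ratio 0.766) and ENSOARG00000012548 (0.769) lay just inside. ENSOARG00000015869 (0.7703) and ENSOARG00000007258 (0.775) lay just outside, among 25 genes that met every other condition. ENSOARG00000012548 had 12.7, 15.4 and 15.2 CPM at fetal start against 10.9, 12.1 and 10.2 CPM at fetal end. ENSOARG00000007258, on the other side, had 45.4, 46.3 and 46.9 CPM against 31.2, 43.0 and 33.2 CPM.

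Within fetal start, the 3 lambs did not form a series by age. The rule treats them alike, but it uses their values: all 3 had to lie above the other libraries, and their mean enters the ratio. The order of the 3 lambs is thus not free of the rule. The counts below are a description, and the part of the rule in them was not tested. The lamb labelled gd131 (replicate 3) was the lowest of the group in 11 of the 26 genes, where it was the lowest in 32.7% of the 13364 genes of that abundance range. The lamb labelled gd127 (replicate 1) was the lowest in 12, against 27.9% of those genes, and the lamb labelled gd128 (replicate 2) in 3, against 39.4%. Replicate 2 was also the highest of the group in 14 of the 26, against 29.4% of the genes of that range. With TMM scaling it was the highest in 15 and the lowest in 2, against 35.9% and 33.6%. The high level of replicate 2 was large in some genes, such as ENSOARG00000017289, with 14.3 CPM against 6.54 and 5.68 CPM in the other fetal start lambs. Each of these days has 1 lamb, so day and lamb cannot be told apart.

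Levels within fetal end were similarly without order by day. As the median over the 26 genes of the percentage of the fetal start mean, the lambs labelled gd134, gd135 and gd136 stood at 62.3%, 59.4% and 61.2%. Fetal end replicate 3 (gd136) was the lowest of its group in 11 of the 26 genes, and in 45.9% of all genes of that abundance range. The median coefficient of variation between lambs was higher in these genes than over that range in all 5 groups, which is a description only. The rule acts on the spread in both directions. A wide spread makes it easier for 1 later library to reach the lowest fetal end library. It also makes it harder for all fetal start libraries to lie above the others. The part of the rule in this was not tested. At fetal end the median coefficient was 20.4% for the 26 genes and 11.9% for the range, and at fetal start it was 17.4% and 13.9%. The mean CPM of the 26 genes had a median of 9.74, and the part of counting error in their spread was not tested.

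After the fall, the set as a whole stayed near the fetal end level in supported and term lungs. The median over genes of the percentage of the fetal start mean was taken in each library and averaged by group. It was 61.0 ± 1.48% in fetal end libraries, 61.8 ± 1.97% with IMV and 64.5 ± 6.07% with NRS (SD, n = 3 each). At term it was 55.0 ± 2.55% (SD, n = 2). From the group mean of each gene, the median was 66.4% at fetal end, 61.0% with IMV, 62.5% with NRS and 55.6% at term. The order of fetal end and the supported groups thus depends on the measure. With TMM scaling, the mean lay below that of fetal end in 18 genes with IMV, 16 with NRS and 15 at term. Of genes of the abundance range these were 49%, 51% and 48.2%. Among these groups the libraries lay closest together at fetal end and farthest apart with NRS, where replicate 2 stood at 58.3% and replicate 3 at 70.4%. The rule itself keeps these groups near fetal end, because each had to reach the lowest fetal end library at least once. Of 78 IMV values of the 26 genes, 53 lay inside the fetal end range, 18 below it and 7 above it. For NRS these were 46, 17 and 15 of 78 values, and for term 29, 16 and 7 of 52. The median log2 fold change against fetal end was -0.076 with IMV, -0.065 with NRS and -0.16 at term, where the medians of all genes tested were -0.00527, -0.0123 and -0.0143. The 3 comparisons share their fetal end libraries. The NRS median turned to 0.0093 without NRS replicate 2, and all 3 medians moved by over 1.5 times when single libraries were left out (the term median to -0.048 without fetal end replicate 1, the IMV median to -0.0302 without IMV replicate 1).

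In some genes the mean of a later group lay outside the fetal end range. The IMV mean lay above the fetal end range in 1 of the 26 genes and below it in 3. The NRS mean lay above it in 5 and below it in 1. The term mean lay above it in 3 and below it in 6. The share of other genes outside that range was not measured, so these counts are description only. ENSOARG00000012704 was low at fetal end, with 3.81, 4.69 and 4.31 CPM against 10.2, 12.1 and 9.14 CPM at fetal start. With IMV it stood at 8.50, 4.50 and 6.39 CPM, with NRS at 6.49, 4.94 and 5.17 CPM and at term at 6.05 and 4.70 CPM, so that 7 of these 8 libraries lay above all fetal end libraries. ENSOARG00000019598 went the other way with NRS: it had 6.002, 4.54 and 4.48 CPM at fetal start, 3.05, 1.53 and 4.11 CPM at fetal end, and 1.15, 0.731 and 1.54 CPM with NRS. Of the NRS libraries only replicate 3 reached the lowest fetal end library.

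Whether the 2 kinds of support left these genes at different levels was tested with IMV against NRS. The rule does not set these groups against each other, but it holds every IMV and NRS library below fetal start and asks 1 of each to reach fetal end, which limits how far they can differ. By edgeR's quasi-likelihood test 0 of the 26 genes passed a Benjamini-Hochberg adjusted p of 0.05 (smallest adjusted p = 0.393), and 0% of all 17069 genes did. An unadjusted p under 0.05 was reached by 1 of the 26 and by 10.9% of all genes. DESeq2 called 0 of the 26 (smallest adjusted p = 0.187) and 0.853% of the 15355 genes it tested. The IMV and NRS libraries did not overlap in 3 of the 26 genes, where 21.8% of genes of the abundance range did not overlap. With IMV 16 of the 26 were higher and 10 lower (median log2 fold change 0.020, and 0.00377 over all genes), and 50.7% of all genes were higher. Without single libraries the number higher ran from 12 to 18 and the median from -0.078 to 0.099, and the median was below 0 without IMV replicate 1 or 3 or NRS replicate 2. The standard error of a single gene's log2 fold change had a median of 0.25.

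ENSOARG00000019598 was the gene with the smallest p among those higher with IMV. It had 1.93, 1.87 and 3.48 CPM with IMV against 1.15, 0.731 and 1.54 CPM with NRS, which is a log2 difference of 1.12 ± 0.41 (SE; adjusted p = 0.393 in edgeR). The next was ENSOARG00000012704, at 6.46 ± 2.002 against 5.54 ± 0.838 CPM (SD, n = 3 each) and a log2 fold change of 0.27 ± 0.24 (SE), which was 0.0065 without IMV replicate 1. Of the genes lower with IMV, ENSOARG00000006943 had 4.36, 4.81 and 4.23 CPM against 5.27, 6.19 and 5.32 CPM with NRS. Its log2 fold change was -0.28 ± 0.16 (SE; adjusted p = 0.540 in edgeR). ENSOARG00000004714, with 39.8, 38.2 and 40.6 CPM against 46.6, 44.2 and 43.4 CPM, differed by a log2 fold change of -0.13 ± 0.093 (SE; adjusted p = 0.624 in edgeR). ENSOARG00000019598, ENSOARG00000006943 and ENSOARG00000004714 are the 3 genes without overlap between the groups.

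Term lungs were compared with each kind of support by the same test. Against IMV, 0 of the 26 genes passed in edgeR (smallest adjusted p = 0.189), as did 0% of all genes, and 1 of the 26 had an unadjusted p under 0.05 against 17.9% of all genes. DESeq2 called 0 of the 26 (smallest adjusted p = 0.091) and 7.04% of the 15790 genes it tested. Term and IMV libraries did not overlap in 4 of the 26, against 38% of genes of the abundance range, a share that the small term group raises. Against NRS, 0 of the 26 and 0% of all genes passed in edgeR (smallest adjusted p of the 26 = 0.411), and 1 of the 26 against 10.4% of all genes had an unadjusted p under 0.05. DESeq2 called 0 of the 26 (smallest adjusted p = 0.119) and 0.792% of 15790 genes, and the libraries did not overlap in 7 of the 26 against 28.8% of genes of the range. These contrasts were not used directly by the rule, but it bounds all 3 groups by fetal start and fetal end, which limits how far they can differ.

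The direction of the small differences from term was mostly downward. Term was lower than IMV in 16 of the 26 genes and lower than NRS in 18, at a median log2 fold change of -0.10 for IMV and -0.095 for NRS (0.00299 and 0.005 over all genes), where 49.6% and 49.1% of all genes were lower at term. Of the means of IMV, NRS and term, that of term was the lowest in 16 of the 26 genes, against 37.4% of genes of the range, and with TMM scaling in 15 against 34.1%. The 2 term lambs limit this count, and the 2 comparisons share those lambs. Without single libraries, the number of genes higher at term ran from 6 to 11 against IMV and from 7 to 12 against NRS. The median log2 fold change then ran from -0.152 to -0.045 and from -0.133 to -0.035. No single gene passed the test.

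The genes nearest to a difference at term lay on both sides. ENSOARG00000006943 was higher at term than with IMV, at 6.28 and 6.13 CPM against 4.36, 4.81 and 4.23 CPM, a log2 fold change of 0.47 ± 0.17 (SE; adjusted p = 0.189 in edgeR). Both term libraries lay above all IMV and fetal end libraries of this gene, while fetal start stayed above them at 6.76, 6.95 and 8.47 CPM. ENSOARG00000017289 was next among the higher genes, at 5.23 and 2.28 CPM against 1.54, 2.75 and 3.34 CPM, and its log2 fold change of 0.57 ± 0.45 (SE) turned to -0.17 without term replicate 2. ENSOARG00000002113 was lower at term, at 7.98 and 6.10 CPM, than with IMV (10.4, 9.09 and 8.04 CPM) and NRS (8.76, 9.20 and 9.84 CPM). The log2 fold changes were -0.38 ± 0.23 and -0.35 ± 0.23 (SE; adjusted p = 0.404 and 0.616 in edgeR), and term replicate 3 was its lowest library of all 14. ENSOARG00000020269 was also lower than with IMV, at 22.1 and 28.9 CPM against 33.2, 34.3 and 32.4 CPM, a log2 fold change of -0.39 ± 0.23 (SE; adjusted p = 0.398 in edgeR).

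Against NRS, the 2 genes with the smallest p among those higher at term both had their lowest group mean with NRS. ENSOARG00000019598 had 3.46 and 2.49 CPM at term against 1.15, 0.731 and 1.54 CPM with NRS, a log2 fold change of 1.42 ± 0.45 (SE; adjusted p = 0.411 in edgeR). ENSOARG00000005153 had the largest log2 fold change, 1.75 ± 0.88 (SE; adjusted p = 0.516 in edgeR), and it was 1.28 to 2.88 without single libraries, the highest without NRS replicate 1. On the lower side, ENSOARG00000006817 had the smallest p, ahead of ENSOARG00000002113. It was the fourth most abundant gene of the set, and stood at 58.9 and 77.4 CPM at term against 85.0, 79.6 and 93.6 CPM with NRS. Its log2 fold change was -0.29 ± 0.17 (SE; adjusted p = 0.576 in edgeR), and term replicate 2 was its lowest library.

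**Figure D4:**
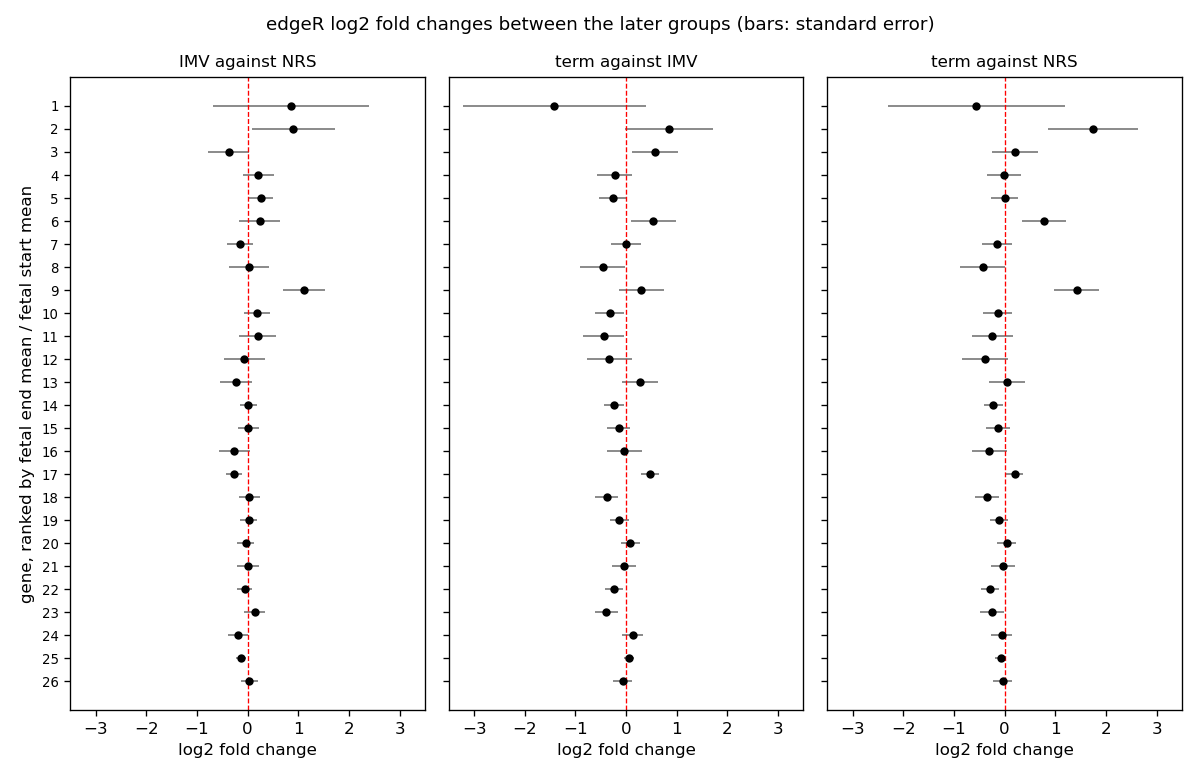
Log2 fold changes of the 26 genes from edgeR (points, rows in the order of the plot of levels by library) with their standard errors (bars), for IMV against NRS, term against IMV and term against NRS. Most points lie within 1 standard error of 0 or a little beyond it, the widest bars belong to gene 1 (ENSOARG00000019174), and the points of gene 9 (ENSOARG00000019598) lie to the right in the outer panels.

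Over the 11 later libraries, pairs of the 26 genes went both ways. The mean Pearson correlation of log2 CPM over pairs was 0.023, and 0.017 over all genes of the abundance range. Single pairs ran from -0.729, for ENSOARG00000022732 with ENSOARG00000010719, to 0.876, for ENSOARG00000007453 with ENSOARG00000002113, and these pairs are named after their values were seen. This is a description over libraries that share their groups and totals.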

How the data were processed

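The 14 libraries came from a stranded total RNA kit on 1 flow cell lane, per the labels. The authors deposited a single count table, in which all 14 columns hold whole, unscaled counts by Ensembl gene. Build Oar_v3.1 and the tools STAR 2.7.0f, featureCounts 1.6.3, cutadapt 1.16, bcl2fastq, Subread and DESeq2 1.22.2 appear in the submitters' processing notes, which give them no role. The strand setting, annotation release and handling of multiply matched reads were not given in the sources used here, so antisense, overlapping or near-identical genes are uncertain. Sample titles gave the groups. CPM for the rule and the text used column totals. Counts were tested with edgeR 4.0.16 in R 4.3.3 (quasi-likelihood F test, TMM scaling, filterByExpr, 5 group means, 9 residual degrees of freedom, Benjamini-Hochberg adjustment over 17069 genes), and log2 fold changes come from that fit. The standard error is the log2 fold change over the square root of F. The fit was tested on simulated data. Alternatives were DESeq2 1.42.0, omission of the filter, RLE scaling, a fit restricted to both groups of a contrast, a replicate block, an identifier suffix covariate (added after seeing the data) and leaving out each library.

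Genes were named by rule, except where the text says otherwise: the 2 with the largest fall, the 2 highest mean CPM, the 2 on each side of the ratio limit, and 2 per direction with the smallest p in each tested comparison. The genes and lists were chosen with earlier results of these data known. The 0 identifiers that matched the reference table left the planned lists of symbols unused, and correlations between the genes were taken over the 11 later libraries rather than all 14. Intervals cover counting error only.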

Additional observations from a re-analysis of the deposited data

How the results depend on the processing

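Of the 26 genes, 0 passed in IMV against NRS, term against IMV or term against NRS under any of the 34 alternatives run for these comparisons. The smallest adjusted p of the 26 under the alternatives ran from 0.187 to 0.871, from 0.091 to 0.525 and from 0.119 to 0.726. With DESeq2 the calls over all genes were 0.853%, 7.04% and 0.792%, where edgeR made 0 in each. In 10 of 29 alternatives the medians against fetal end moved by more than the spread between lambs, and the cause was not tested. Leaving out 1 library gave -0.105 to -0.0302 for IMV (main value -0.0759), -0.1256 to 0.0093 for NRS (-0.0649) and -0.1891 to -0.0482 for term (-0.1574). With the replicate block the term median was -0.1246, and it changed no call of the 26 genes, which was 0 in each tested comparison. Same-numbered libraries of different groups had correlated deviations over 0.1 in 6 of 26 pairs, and differently numbered libraries in 9 of 52. The highest correlations were 0.2877 and 0.1825. Deviations from a group mean depend on each other within the group, so these counts cannot decide whether the numbers pair the lambs. The number of genes meeting the rule was 40 with TMM-scaled and 40 with RLE-scaled CPM, and 18 to 96 when 1 library was left out, where fewer libraries in a group also make the rule easier or harder to meet. The log2 fold change of ENSOARG00000017289 in term against IMV ran from -0.1665 (term replicate 2 left out) to 1.0581 (term replicate 3 left out). Among the alternatives run for log2 fold changes of the named genes the former was the only one with another sign. Of 40 alternatives for their fetal end to fetal start ratios, 6 lay above the limit of 0.77, up to 0.808 for ENSOARG00000004714 and 0.798 for ENSOARG00000012548, both without fetal end replicate 3. The identifier suffix as a covariate was chosen after seeing the data. With it the median log2 fold change of the 26 was 0.110 in IMV against NRS (main value 0.020). It was -0.230 in term against IMV (-0.101) and -0.0946 in term against NRS (-0.0946). Genes with few counts, such as ENSOARG00000005153, are limited by depth.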
